A study of Mus musculus with 2 samples.

Results

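Ubiquitin E2 conjugating enzymes were examined for binding of CHOP, the C/EBP-family transcription factor made by Ddit3 when protein folding in the endoplasmic reticulum (ER) is disturbed. The genes were chosen by symbol: all protein-coding genes of the mm10 annotation (GENCODE M21) whose symbol starts with Ube2. There were 37 such genes of 21866 protein-coding genes with an annotated start site. The peaks of each gene were selected on the position of the summit, the base of highest coverage. A peak was called promoter if its summit was no more than 1 kb from one of the gene's start sites. A distal peak lay further away but within 50 kb, with that gene holding the nearest protein-coding start site. The family was taken up with earlier results of these data known, so its counts and folds are given as a description without a test.

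The material was wild-type mouse liver, taken 8 h after an intraperitoneal injection of tunicamycin (1 mg/kg body weight), a drug that blocks N-glycosylation. Material of 3 mice was pooled for 1 immunoprecipitate with a mouse monoclonal CHOP antibody, which the submitters had tried at the Gadd34 promoter, and 1 input library from tunicamycin-treated liver was the other sample. Strain, sex and age are not given in the sources used here, and no replicate, untreated or CHOP-deficient sample was analysed here. A value therefore describes this pool, and variation between animals cannot be given. Peak positions and folds are the authors' and serve here only to describe and rank peaks within their list, which held 14157 peaks. The median fold enrichment over local background was 6.75, on a median of 11 reads at the summit (4 to 329). Each fold is the summit reads over the background after 1 read is added to both. A peak list does not measure expression, so marker genes are given as counts only. Of 8 liver markers listed, 7 matched the annotation, and 6 of these had a promoter or distal peak. The counts were 0 of 4 Kupffer cell, 1 of 3 endothelial, 1 of 3 stellate and 1 of 3 cholangiocyte markers. Over all genes the count was 8356 of 21866. Only 1 of the 7 liver markers, Ass1, had a promoter peak.

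Ubiquitin is activated by an E1 enzyme, passed to the active-site cysteine of an E2, and transferred to a substrate with the help of an E3 ligase. The E2 often decides which kind of ubiquitin chain is built, and some members of the family carry NEDD8 or ISG15 in place of ubiquitin. In liver, as in other secretory tissues, a subset of E2 enzymes at the ER membrane marks misfolded proteins for the proteasome, a process called ER-associated degradation. Tunicamycin increases the load of such proteins.

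Most Ube2 genes had a CHOP promoter peak, at folds near the median of all genes with one. In all, 27 of the 37 Ube2 genes (73.0%) had a promoter peak, against 27.9% of all protein-coding genes (6100 of 21866). The highest promoter peak of these 27 genes had a median fold of 6.04 (range 3.85 to 26.2), against a median of 6.86 over all 6100 genes with a promoter peak. Of the 27, 12 lay at or above that median. The genes led by fold were Ube2q1, Ube2e1, Ube2w and Ube2j1. With peaks at or above the median fold of the whole list alone, the count was 12 Ube2 genes, against 14.7% of all genes.

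**Figure D1:**
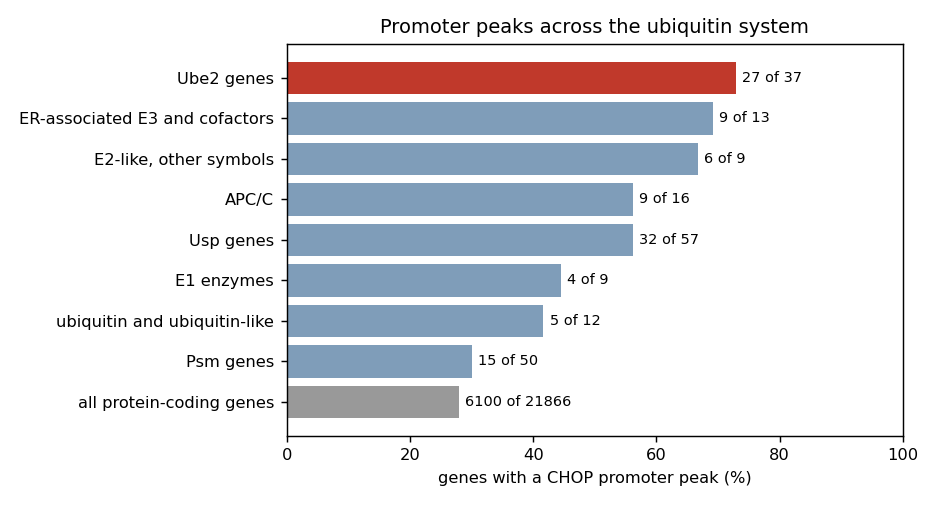
Share of genes with a CHOP promoter peak (%, horizontal axis) for the Ube2 genes, 7 lists of related genes and all protein-coding genes, with the counts beside each bar. The Ube2 bar stands at 27 of 37 and the bar for all genes at 6100 of 21866; all values come from 1 immunoprecipitate and have no error bar.

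Sequences at 6 promoter summits are shown because they hold the partial stress-response elements found there or, for Ube2q1, belong to the peak of highest fold. All are GRCm38.p6 (mm10) in the direction of the gene, 5′ to 3′. No Ube2 promoter peak had a full C/EBP-ATF composite, C/EBP site or CRE within 50 bp of its summit, as was the case for most promoter peaks of the list, so the peaks with a partial site are given, followed by the peak of highest fold. Peaks with only a GC box, CCAAT box or ETS site are not shown. The partial CRE was found in 4 of the 32 Ube2 peaks (12.5%), against 13.3% of all promoter peaks. The CHOP-C/EBP core was found in 1 of 32, against 3.47%, and the E-box in 1 of 32, against 5.41%. These shares do not set the Ube2 peaks apart. The UPRE-like site was found in 1 of 32, against 0.301%. That is a single peak among 13 motifs searched, and within 25 bp of the summit the count was 0. Capitals mark the motif named on each line, in either orientation. The stretch of Ube2j1 from -92 to -8 bp relative to the start site (chr4:33031324-33031408, plus strand) holds 3 partial CREs, TGACG or its reverse complement. The overlapping stretch further upstream (chr4:33031301-33031330) holds a UPRE-like site, TGACGTGG. The stretches of Ube2w (chr1:16619230-16619259, minus strand), Ube2n (chr10:95514889-95514989, plus strand) and Ube2s (chr7:4812140-4812169, minus strand) each hold 1 partial CRE. That of Ube2ql1 (chr13:69739846-69739875, minus strand) holds the CHOP-C/EBP core TGCAAT. That of Ube2q1 (chr3:89773422-89773522, plus strand), from -194 to -94 bp, holds 2 E-boxes, CACGTG, and a GC box, GGGCGG.
Ube2j1, partial CREs: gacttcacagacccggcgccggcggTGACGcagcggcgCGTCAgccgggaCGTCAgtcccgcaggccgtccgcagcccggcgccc
Ube2j1, UPRE-like site: cgaagcgcccgCCACGTCAggccgacttca
Ube2w, partial CRE: gtttcatcatggCGTCAatgcaggtgagcg
Ube2n, partial CRE: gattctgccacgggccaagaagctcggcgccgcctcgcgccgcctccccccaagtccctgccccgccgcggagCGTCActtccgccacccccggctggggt
Ube2s, partial CRE: agtcatggtgagTGACGcgggaggcccgag
Ube2ql1, CHOP-C/EBP core: agcagccgcctcTGCAATgtcagcagccgc
Ube2q1, E-boxes and GC box: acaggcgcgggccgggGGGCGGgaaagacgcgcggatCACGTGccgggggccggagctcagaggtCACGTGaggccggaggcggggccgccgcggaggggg

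Among the E2 enzymes of ER-associated degradation, 4 of 5 had a promoter peak. The fifth, Ube2g2, had none, and its nearest summit lay at 1423 bp in sequence that the reference genome marks as repeat. Over all protein-coding genes the share with a promoter peak was 27.9%, and over those with a CpG-rich promoter, defined below, 51.9%. All 5 enzymes had such a promoter. The same shares stand beside the counts of the other role groups below, which hold few genes each. Differences between groups were not tested. Ube2j1 encodes a tail-anchored E2 in the ER membrane that serves the degradation of misfolded ER proteins. Its peak had a fold of 14.7 on 38 reads (95% exact Poisson interval 10.5 to 20.1; chromosome 4, 33031068 to 33031738), with the summit 58 bp upstream of the start site. It ranked 610th of the 6100 genes with a promoter peak. Ube2j2, the second membrane-anchored E2 of this kind, had a fold of 9.24 on 18 reads (5.67 to 14.3; chromosome 4, 155943693 to 155944141), with the summit 1 bp inside the gene in the 5′ UTR. The intervals of the 2 genes overlap. Intervals here and below are of this kind and cover counting error only.

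The other E2 enzymes of this group had lower promoter folds. Ube2g1, a homolog of an E2 of ER-associated degradation in yeast, had a fold of 5.37 on 15 reads, with the summit 491 bp downstream of the start site in an intron. Ube2k, which builds chains that mark proteins for the proteasome, had peaks of 3.23-fold on 8 reads and 4.35-fold on 7 reads, 17 bp upstream and 172 bp downstream of a start site. Ube2k dropped out of the count with −log10 q of at least 5, with a fold of at least 5, and with at least 10 reads. Both Ube2k summits also lay within 1 kb of a start site of Smim14, which was the only other protein-coding gene to share a Ube2 promoter peak. Ube2g2, an E2 of ER-associated degradation, had no promoter peak. Its nearest summit, 1423 bp downstream in an intron (chromosome 10, 77623695 to 77623926), had a fold of 9.21 on 12 reads (5.10 to 15.6), and a second intronic peak at 11890 bp had a fold of 6.0 on 7 reads.

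Of the E2 enzymes that start chains with many RING ligases, the UBE2D and UBE2E families with Ube2w, 7 of 8 had a promoter peak. Ube2e1 had the second highest fold of all Ube2 genes, 20.9 on 75 reads (16.5 to 26.1; chromosome 14, 18331288 to 18332080), 35 bp downstream of the start site in the 5′ UTR. Its paralogs Ube2e3 and Ube2e2 had folds of 7.54 on 17 reads (4.57 to 11.8; chromosome 2, 78868602 to 78869743) and 6.32 on 12 reads (3.50 to 10.7). The counting interval of Ube2e1 does not overlap those of its paralogs. Ube2w, which attaches ubiquitin to the amino terminus of its substrates, had a fold of 17.5 on 42 reads (12.7 to 23.6; chromosome 1, 16618691 to 16619488), 85 bp downstream of the start site.

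The UBE2D paralogs, general-purpose E2 enzymes used by many ligases, had low folds. Ube2d2a stood at 5.84 on 11 reads and Ube2d3 at 5.37 on 15 reads with a second peak of 4.08-fold on 9 reads. Ube2d1 stood at 3.85 on 13 reads (2.18 to 6.38), the lowest of the 27 genes when each is taken by its highest promoter peak. The counting intervals of these 3 genes overlap. Ube2d2b, annotated with 1 exon on chromosome 5, had no promoter or distal peak, and its nearest summit lay 38472 bp away.

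All 3 members of the group that builds K63-linked ubiquitin chains, used in signalling and DNA repair, had a promoter peak. Ube2v1, which lacks the active-site cysteine and works as a partner of Ube2n, had a fold of 11.8 on 28 reads (8.00 to 16.9; chromosome 2, 167631394 to 167632186), 94 bp downstream of a start site in an intron. Ube2n, the catalytic member, had peaks of 5.28-fold on 13 reads and 3.97-fold on 9 reads. Ube2v2, the other inactive partner, had a fold of 5.0 on 9 reads (2.56 to 9.05).

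The Q family, E2 enzymes with a long amino-terminal extension and the related Ube2ql1, held the highest promoter peak of all Ube2 genes. Ube2q1 had a fold of 26.2 on 65 reads (20.3 to 33.3; chromosome 3, 89773044 to 89774029) and ranked 163rd of the 6100 genes with a promoter peak. Its summit lay outside the gene, 144 bp upstream of the start site, with the E-boxes shown above. Ube2q2 had a fold of 8.19 on 18 reads (5.03 to 12.7; chromosome 9, 55149102 to 55150146), and its interval does not overlap that of Ube2q1. Ube2ql1 had peaks of 5.03-fold on 9 reads, in a coding exon 705 bp downstream, and 4.18-fold on 12 reads in the 5′ UTR. The first of these was the member summit nearest to the 1 kb limit from inside, and the Ube2g2 summit at 1423 bp was the nearest from outside, followed by one of Ube2l3 at 1618 bp.

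In the role group labelled HECT and RBR partners, which held Ube2h, Ube2l3 and Ube2o, 2 of 3 genes had a promoter peak. The label describes Ube2l3 and not the other members. Ube2h, the E2 of the CTLH ligase complex, had a fold of 10.6 on 20 reads (6.69 to 16.1; chromosome 6, 30304030 to 30304626), 66 bp downstream in the 5′ UTR. Ube2l3, which serves parkin and other ligases with a catalytic cysteine, had a fold of 9.35 on 17 reads (5.67 to 14.7; chromosome 16, 17201067 to 17201508) in an intron. Ube2o, a large enzyme with both E2 and E3 activity, had no promoter or distal peak, and the nearest summit lay 26643 bp away, nearest to Aanat.

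Of the E2 enzymes for ubiquitin-like proteins, 3 of 5 had a promoter peak. Ube2m, which carries NEDD8 to cullins, had a fold of 7.50 on 14 reads (4.33 to 12.2; chromosome 7, 13037611 to 13037852) and a second peak of 5.45-fold. Ube2f, the other NEDD8 enzyme, stood at 5.16 on 12 reads. Ube2z, which works with the E1 enzyme UBA6, and Ube2l6, the ISG15-conjugating enzyme, had none. The nearest summit to Ube2l6 lay 2603 bp inside the gene in an intron, with a fold of 9.0 on 11 reads.

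The cell-cycle E2 enzymes all had a low promoter peak. Ube2c and Ube2s, which start and extend chains for the anaphase-promoting complex (APC/C), had folds of 5.84 on 11 reads and 5.38 on 9 reads. Ube2r2, which serves cullin ligases, had a fold of 5.20 on 9 reads. In the DNA damage group, Ube2b, a RAD6 homolog, had a fold of 9.05 on 20 reads (5.70 to 13.7; chromosome 11, 52000460 to 52000734), 79 bp upstream of the nearest start site. Its paralog Ube2a on chromosome X, with a nearest summit at 28319 bp, and Ube2t, the E2 of the Fanconi anaemia pathway, had none.

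Of the 4 other symbols, Ube2cbp had a peak of 6.04-fold on 15 reads, 283 bp downstream in an intron. Its symbol puts it in the list, but its product is known as a partner of an E2 with ligase activity, not as an E2. Ube2u, Ube2dnl1 and Ube2dnl2 had no promoter or distal peak, with nearest summits 103667, 472162 and 474732 bp away.

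**Figure D2:**
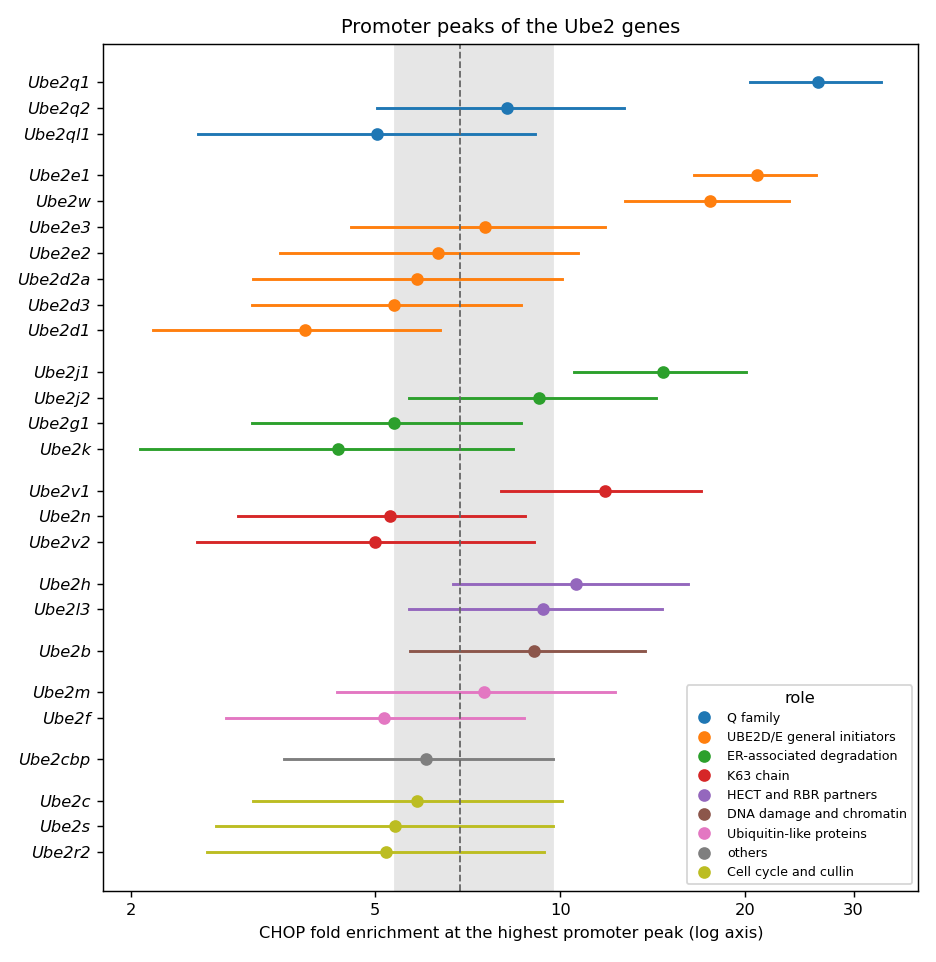
Fold enrichment of the highest promoter peak (horizontal, log axis) of each Ube2 gene described in the text that had one, with 95% exact Poisson intervals that cover counting error only, coloured by role. The dashed line is the median over all 6100 genes with a promoter peak, 6.86, and the grey band runs from the lower to the upper quartile, 5.39 to 9.72. The intervals of Ube2q1, Ube2e1, Ube2w and Ube2j1 lie wholly above the band.

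The Ube2 promoter peaks lay close to start sites. The 32 promoter peaks had a median summit distance of 80.0 bp from the nearest start site of the gene, and 20 of them (62.5%) lay within 100 bp. Over all 6987 pairs of a promoter peak and a gene the median was 120.0 bp, with 44.9% within 100 bp. Of the 32 summits, 18 (56.2%) lay downstream of or at the start site, against 59.0% of all pairs. By the gene's own protein-coding transcripts, 12 summits lay in an intron, 12 in a 5′ UTR, 7 outside the gene and 1 in a coding exon. The median width was 286 bp, against 351 bp for all promoter peaks, and the widest were those of Ube2e3 (1142 bp) and Ube2q2 (1045 bp).

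**Figure D3:**
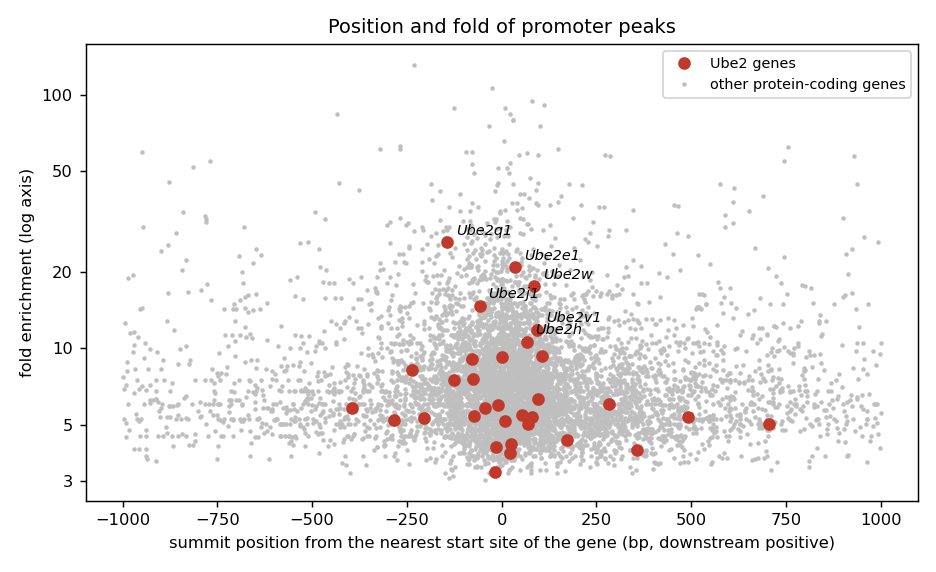
Summit position from the nearest start site of the gene (horizontal, bp, downstream positive) against fold enrichment (vertical, log axis) for each pair of promoter peak and gene. Ube2 genes are red and other protein-coding genes grey; the 6 named Ube2 peaks with a fold of at least 10 lie between 144 bp upstream and 94 bp downstream of a start site.

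Several of these regions also hold the start of another transcript. A start of a gene that is not protein-coding lay within 1 kb of 8 of the 32 summits, at 7 genes: Ube2b, Ube2c, Ube2d3, Ube2h, Ube2j1, Ube2q1 and Ube2w. Among all promoter peaks this share was 16.5%. Position does not tell which of the 2 transcripts a peak belongs to.

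Ube2 promoters were rich in CpG, and CpG content moved with the presence of a peak across the genome. Over the sequence up to 500 bp either side of a start, the observed/expected CpG ratio had a median of 0.83 in Ube2 genes and 0.50 in all genes. Of the 28 Ube2 genes with a ratio of at least 0.6, 24 (85.7%) had a promoter peak, against 51.9% of all such genes (4401 of 8476). Below that ratio 3 of 9 Ube2 genes had one (Ube2d2a, Ube2e2 and Ube2l3), against 12.7% of all such genes. In the narrower range of 0.8 to 1.0, which held 20 Ube2 genes, the count was 17 of 20, against 66.6% of all genes. Ube2a, Ube2g2, Ube2o and Ube2z were the CpG-rich members without a promoter peak. The part of promoter composition in the count was not tested.

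**Figure D4:**
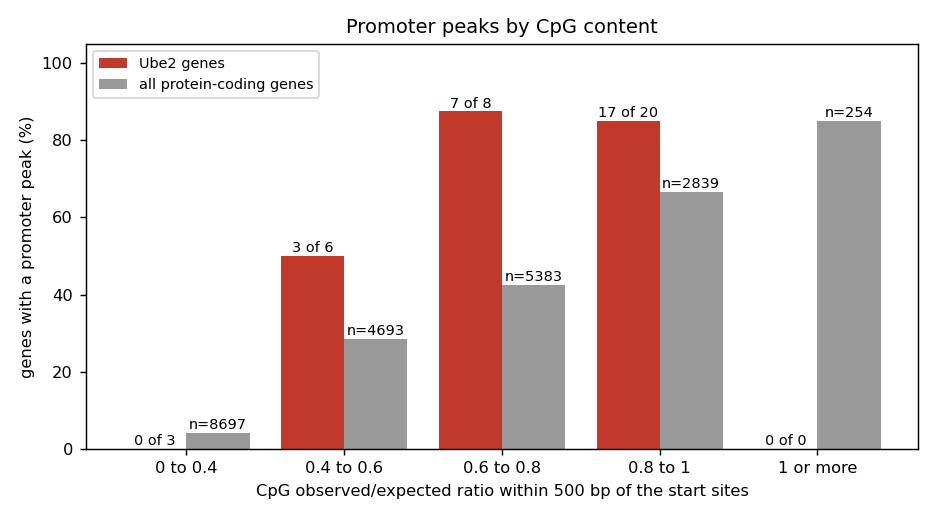
Share of genes with a promoter peak (%, vertical) by CpG observed/expected ratio of the promoter (horizontal), for Ube2 genes (red, counts above the bars) and all protein-coding genes (grey, number of genes above the bars). The share of all genes goes from 4.20% in the lowest range to 85.0% in the highest, which holds no Ube2 gene.

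The motif search gave GC boxes in most Ube2 promoter peaks. Stress-response elements were few in them, as in all promoter peaks. Both strands were searched for exact matches no more than 50 bp from each summit. A GC box (GGGCGG) was found in 19 of the 32 peaks, against 45.4% of all 6306 promoter peaks. The partial CRE (TGACG) was found in 4 of 32, at Ube2j1, Ube2n, Ube2s and Ube2w, against 13.3%. The UPRE-like site (TGACGTGG), which contains the partial CRE, was found at Ube2j1 and in 0.301% of all promoter peaks. The E-box (CACGTG) was found at Ube2q1, against 5.41% of all, and the CHOP-C/EBP core (TGCAAT) at Ube2ql1, against 3.47%.

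The C/EBP-ATF composite, the C/EBP site and the CRE gave no match, while the CHOP-C/EBP core matched at Ube2ql1 as given above. The C/EBP-ATF composite (TGATGNAAT, which contains the core where N is C) was found in 0 of 32 Ube2 peaks and in 0.729% of all promoter peaks. The C/EBP site (TTNNGCAA) was found in 0 of 32, against 2.11%, and the CRE (TGACGTCA, which also contains the partial CRE) in 0 of 32, against 0.856%. In all promoter peaks, 1 or more of these 3 elements was present in 2.92% of those with a fold under 10 and in 8.03% of those with a fold of 20 or more. At any fold the share was 3.65%, so a count of 0 among 32 peaks does not set the Ube2 peaks apart. The AP-1 site (TGANTCA) was found in 0 of 32, against 1.09%, and the partial NRF1 site (GCGCATG) in 0 of 32, against 1.54%. The YY1 site (AAGATGGCG) was found in 0 of 32, against 0.872%. The CCAAT box (CCAAT) was found at Ube2d2a and Ube2e3, against 7.53%, and the ETS site (CCGGAAG) at Ube2b, against 4.12%. None of the 13 motifs was found in 9 of the 32 peaks, those of Ube2v1 and Ube2j2 among them, against 36.3% of all promoter peaks.

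**Figure D5:**
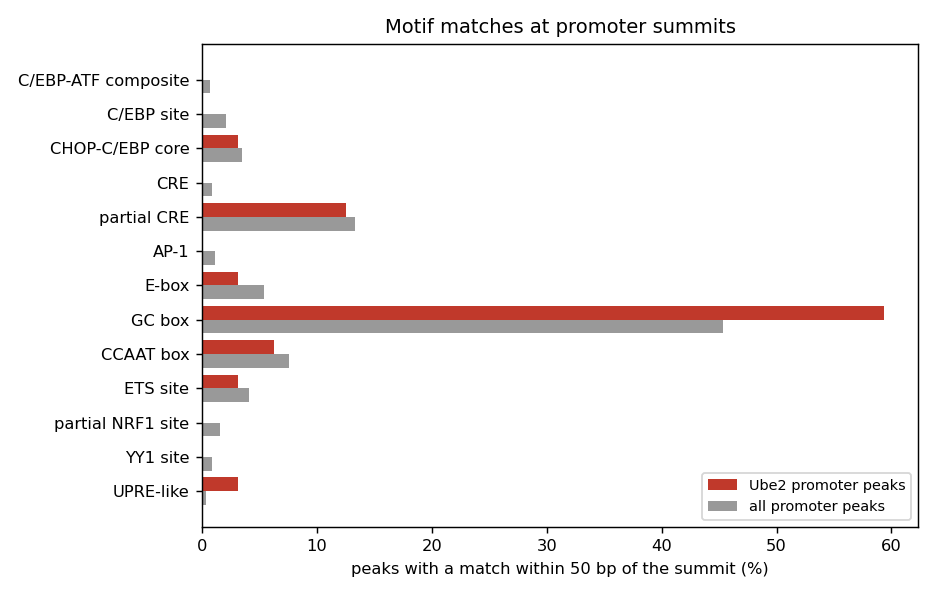
Share of promoter peaks with an exact motif match within 50 bp of the summit (%, horizontal) for the 32 Ube2 peaks (red) and all 6306 promoter peaks (grey). The GC box stands at 59.4% in Ube2 peaks and 45.4% in all, and a single Ube2 peak makes 3.12%.

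Distal peaks were found at 8 of the 37 Ube2 genes, against 18.0% of all protein-coding genes (3941). There were 10 such peaks, with a median fold of 8.42, against 6.75 for all 5297 distal peaks. The highest lay upstream of Ube2h, with 18.1-fold on 25 reads (12.0 to 26.5; chromosome 6, 30344665 to 30345127) at 40428 bp and 15.5-fold on 27 reads (10.4 to 22.3; 30317697 to 30317996) at 13318 bp. Ube2q2 had an intronic peak of 12.7-fold on 16 reads (chromosome 9, 55174291 to 55174601) 24358 bp downstream of a start site. All 3 of these summits lay in sequence that the reference genome marks as repeat, as did 49.0% of all distal summits with a fold of at least 10. The Ube2g2 summit at 1423 bp, with a fold under 10, was also marked. Of the 10 Ube2 distal summits 4 were marked, against 39.2% of all distal summits, so this share does not set them apart. A part of repeat-derived reads in these folds was not tested. The remaining distal peaks were those of Ube2g2 and Ube2l6 given above, a 7.83-fold peak 1618 bp inside Ube2l3, a 5.20-fold peak upstream of Ube2m, and peaks on 4 reads with a fold of 3.75 each upstream of Ube2e3 and Ube2v1. With 10 reads or more at the summit, 5 Ube2 genes had a distal peak, against 10.2% of all genes.

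Other genes of the ubiquitin system were counted in the same way, beside 27.9% of all genes and 51.9% of CpG-rich genes with a promoter peak. Among ER-associated E3 ligases and their cofactors 9 of 13 had one, led by March6 at 20.1-fold, a large ER membrane ligase, Rnf170 at 14.6-fold and Rnf139 at 11.3-fold. E2 or E2-like genes under other symbols had 6 of 9, with the autophagy conjugating enzyme Atg3 at 32.5-fold. The APC/C and its activators had 9 of 16, with a highest fold of 11.1 at the activator gene Fzr1. The E1 enzymes, which stand upstream of all E2 enzymes, had 4 of 9, the highest being Uba6 at 6.46-fold. Genes of ubiquitin and ubiquitin-like precursors had 5 of 12, with the highest at Sumo3, 21.9-fold. Among CpG-rich members alone the counts were 8 of 12 for the ER-associated list, 5 of 6 for the E2-like genes, 8 of 13 for the APC/C, 3 of 5 for the E1 enzymes and 5 of 10 for the precursors.

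Among other families of the pathway, the deubiquitinases and the proteasome were counted by symbol. The E3 ligases as a whole family were not counted. Genes whose symbol starts with Usp, mostly deubiquitinases, had 32 of 57 (56.1%), with a median fold of 7.98 and a highest fold of 37.7 at Usp6nl, which encodes a RAB GTPase-activating protein and not a deubiquitinase. Genes whose symbol starts with Psm, mostly proteasome subunits, had 15 of 50, or 30%, close to the 27.9% of all genes, with a median fold of 5.42 and a highest of 40.7 at Psme3, a proteasome activator subunit. Among CpG-rich members alone the counts were 24 of 28 for Ube2, 24 of 33 (72.7%) for Usp and 11 of 29 (37.9%) for Psm genes, against 51.9% of all CpG-rich genes. These lists differ in size and composition, and their differences were not tested.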

How the data were processed

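The immunoprecipitate is represented by the authors' narrowPeak list. Per the labels' protocols, Bowtie placed the single-end reads on mm10 with up to 2 mismatches, with its version not stated there. The authors then discarded reads found more than 2 times at a position and strand, filtered with SAMtools 1.9 and Sambamba 0.7.1, and ran MACS2 2.1.2 with its defaults. The authors deposited a fold ratio of summit pileup over local background, −log10 p and −log10 q, and a score equal to 10 times −log10 q within 1. In the fold ratio, 1 read is added to both the pileup and the background. The input was not analysed here as a separate file.

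The whole-number pileup was solved from fold and −log10 p for all 14157 peaks (largest residual 3.13e-05), and 95% exact Poisson intervals of the reads were turned into fold intervals at the deposited background. Total depth is unknown, and the intervals cover counting error only, since reads carry no molecular identifiers. At the genome-wide background of 0.333 reads, where 29.5% of peaks stand, a single read moves a fold by much.

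Start sites are those of protein-coding transcripts in GENCODE M21, and sequences come from RefSeq's GRCm38.p6. The pileup recovery, the assignment of summits and the motif search were tested on simulated data. Members, lists and motifs were chosen with earlier results of these data known. Ube2 genes with a promoter peak are named, except 1 that is counted but not reported here, the 12 of highest fold with coordinates. The CpG ranges, the split by fold, repeat marks and noncoding starts were added after the values were seen, as were the sequences of partial sites, Ube2ql1 and Ube2q1. Tools were matplotlib 3.10.9, scipy 1.17.1, numpy 2.4.6 and pandas 2.3.3, run in Python 3.11.15.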

Additional observations from a re-analysis of the deposited data

How the results depend on the processing

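Under 10 other settings for peaks, distances and start sites the promoter count of 27 Ube2 genes ran from 12 to 29. It was 12 among peaks at or above the median fold (14.7% of all genes), 20 with −log10 q of at least 5 (4588 of 21866 genes), and 24 with the outermost start site only (25.5%). The setting of −log10 q of at least 5 lost Ube2d1, Ube2f, Ube2k, Ube2ql1, Ube2r2, Ube2s and Ube2v2. Distances of 500 bp gave 27 (25.8%) and of 3 kb gave 29 (30.3%), which added Ube2g2 and Ube2l6. The distal count of 8 was 5 with −log10 q of at least 5 (13.6%) and 5 with at least 10 reads (10.2%), a setting added after the data were seen. Without soft-masked summits, also added later, it was 6 (11.6%) and lost Ube2h and Ube2q2. The median fold of 6.04 was 7.87 with −log10 q of at least 5, where the median of all genes was 7.91.

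The number of the 32 promoter peaks with a match moved with the window, as did the share of all promoter peaks, given in brackets. Within 25 bp of the summit 2 peaks held a partial CRE (7.25%), 11 a GC box (26.8%), 1 a CCAAT box (4.03%) and 0 a UPRE-like site (0.143%). Within 100 bp 8 peaks held a partial CRE (25.1%), 4 an ETS site (8.80%), 1 a partial NRF1 site (3.33%) and 1 a YY1 site (2.22%). Anywhere in the peak, a setting added later, 11 peaks held a partial CRE (40.1%), 8 an ETS site (15.7%), 5 a CCAAT box (26.6%), 3 an E-box (15.4%), 3 a CHOP-C/EBP core (8.71%), 3 a YY1 site (4.22%), 2 a partial NRF1 site (6.17%) and 1 a CRE (2.90%). The C/EBP-ATF composite, the C/EBP site and AP-1 stayed at 0 in all 4 windows. No paired analysis was possible because there was 1 immunoprecipitate and no test. Low read counts limit single folds: 5 of the 27 genes (18.5%) had a highest promoter peak on fewer than 10 reads. Over all genes with a promoter peak the share was 20.85%.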
